A study of Mus musculus with 4 samples.

Results

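SATB1 binds AT-rich DNA and acts largely through the proteins it brings with it, and the transcripts of 10 such chromatin partners, of 55367 gene symbols counted, were examined in splenic CD4+ T cells. The members were taken by symbol as genes whose products have been reported to act with SATB1: *Hdac1*, *Ctbp1*, *Chd4* and *Mta2* among corepressors, *Smarca4*, *Smarca5* and *Baz1a* among chromatin remodellers, *Ep300* and *Kat2b* among acetyltransferases, and *Pml*, the organiser of PML nuclear bodies. The rule uses no measured value, and all 10 were found in the table and passed the filter on low counts. As background, corepressors remove acetyl groups or compact nucleosomes so that genes fall silent, remodellers use ATP to slide or evict nucleosomes, and acetyltransferases mark histones at active genes. SATB1 has been described with partners of each kind, so that it can repress or activate, and in T cells it is studied for how it folds and silences cytokine and receptor loci.

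Bulk RNA was sequenced from sorted splenic CD4+ T cells of C57BL/6 mice, in 4 libraries: 2 carry the label WT (wild type) and 2 the label *Satb1* conditional knockout (cKO). The series text names *Satb1* F/F mice with ThPOK-cre or E8I-cre, and the study gives *Thpok-cre*, which acts once thymocytes commit to the CD4 lineage, as the driver in its bulk CD4+ T cell libraries; the labels do not say whether the WT mice carried floxed alleles. The methods give an average age of 8 to 12 weeks and both sexes for the study's mice, without assigning either to a library. The study calls the libraries biological replicates, while neither it nor the labels say which mice each came from, so p-values measure only the spread between these libraries. Total gene counts lay between 4495902 and 6555699 per library. Expression is given as CPM, the counts of a gene per 1e+06 gene counts after scaling by trimmed mean of M values (TMM), and calls were made where the adjusted p of edgeR's quasi-likelihood test, fitted over 12403 genes, fell below 0.05. Positions are those of GENCODE M21 on GRCm38.

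Some facts of the libraries bear on every value. *Satb1* itself stood at 865 and 979 CPM in the libraries labelled WT and at 941 and 844 CPM in those labelled cKO, with a log2 fold change of -0.05 (edgeR adjusted p = 0.877), so its gene-level count did not check the labels. *Foxp3*, the gene of the Treg lineage factor, was at 141 and 120 CPM in WT and at 404 and 545 CPM in cKO (edgeR adjusted p = 0.000447). *Xist* was at 830 and 945 CPM against 1.71 and 1.27 CPM, and the Y-linked *Ddx3y* at 0 counts in both WT libraries against 99.6 and 126 CPM, so sex and genotype label cannot be told apart. Defining CD4 T cell markers were abundant in all 4 libraries, with a summed level from 4736 to 5140 CPM over 7 genes, of which 1 was called higher in cKO. The 5 Treg markers summed to 396 and 315 CPM in WT and to 721 and 953 CPM in cKO, with 2 of them called higher, *Foxp3* included. The 8 B cell markers summed to at most 14.7 CPM in WT against 56.4 and 23.5 CPM in cKO (1 of 3 tested called higher), and the 9 myeloid markers to 28.2 and 34.8 CPM against 103.8 and 60.7 CPM (4 of 7 tested called higher). The 2 CD8 T cell markers summed to 47.5 and 58.2 CPM against 34.2 and 26.7 CPM (1 called lower), and the 4 erythroid genes ranged from 8.73 to 278.6 CPM, lowest in cKO 1, with 0 called. The 3 NK cell genes summed to at most 3.96 CPM, with *Klra8* at 0 counts throughout. Fewer cells of a type and less RNA per cell cannot be told apart in such bulk samples, and the part of these shifts in the values below was not tested.

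None of the 10 partner genes was called in either direction, where 4.3% of all tested genes were called (2.35% with cKO higher and 1.95% with cKO lower). At an unadjusted p under 0.05 the edgeR quasi-likelihood test held 1 of the 10, *Ep300*, against 19.1% of all tested genes. DESeq2 called 0 of the 10 as well, where it called 427 of 12403 genes. Its unadjusted p was under 0.05 for 1 of the 10 and for 1356 of all genes. In edgeR the unadjusted count was 2 after thinning to the smallest total gene count (*Ep300* and *Baz1a*), where 2273 of 12403 genes were below 0.05. With 1 library left out, it rose without either cKO library and fell without either WT library. The unadjusted count over all tested genes did the same. Counts of the members ran from 346 to 7070 per library, and every member stood above 75.2% of tested genes in level. The 95% intervals of the fold, cKO over WT, spanned at most from 0.733 for *Ctbp1* to 1.40 for *Ep300*, and 9 of the 10 held a fold of 1. Of the members, 6 had a log2 fold change above 0 and 4 below, where 49.8% of tested genes lay above 0, with a median log2 fold change of 0.07 beside -0.0015 over all tested genes. Without WT 1 the split was 9 above and 1 below, and without cKO 1 the median was 0.030.

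**Figure D1:**
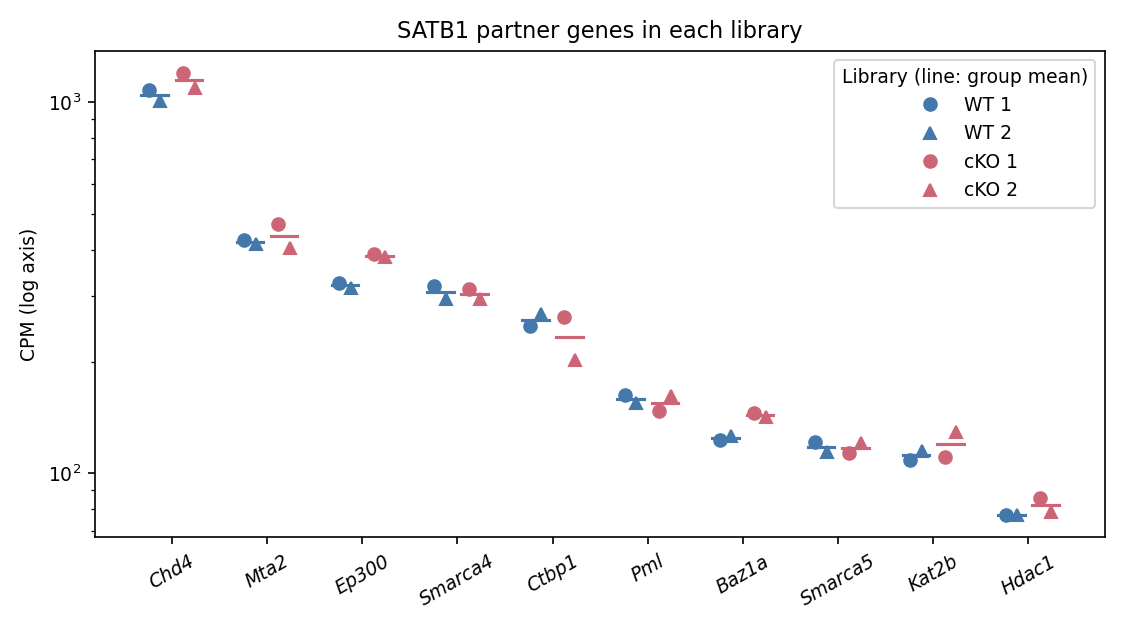
CPM of each partner gene (log axis) in each of the 4 libraries, with circles for replicate 1, triangles for replicate 2, blue for WT and red for cKO, and a line at each group mean. *Chd4* lay above 1000 CPM in every library and *Hdac1* lowest, between 77.2 and 86.0 CPM, and the groups lay apart for *Ep300*, *Baz1a*, *Chd4* and *Hdac1* alone.

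In 4 of the 10 members both cKO libraries lay above both WT libraries, and in 0 both lay below. Over all tested genes, 24.8% had groups apart with cKO higher and 25.4% with cKO lower, so that 40% of the members against 50.3% of genes did not overlap in either direction. In 8 of the 10 the cKO libraries lay further from each other than the group means did. Exact permutation (two-sided) of 4 libraries has 0.333 as its smallest p, so the p-values below rest on the spread that edgeR pools over genes.

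The promoters of 8 members were found in RefSeq on GRCm38.p6, as 10 windows of the 250 bases before a start site; *Hdac1* and *Baz1a* were not matched. As SATB1 prefers AT-rich DNA, the base composition of the windows was described. Their median GC content was 64.0%, beside 59.6% over the windows of tested genes and 52.4% over all 32851 windows. The GC box GGGCGG, searched on both strands, was in 8 of the 10, against 57.1% and 32.7% of those sets. The 10 windows are not separate: those of *Chd4* share 68 bases with a GC box in them. The *Ep300* window and the second *Kat2b* window lie wholly within the gene in GENCODE M21. A run of at least 8 letters that are all A or T was in 1 of the 10, against 25.8% and 39.8%. The members with the highest and the lowest GC content are shown, cut to the bases that lie before the gene in GENCODE M21 too. *Ctbp1* (chr5:33275005-33275254, minus strand) had 77.6% GC, with GC boxes in capitals, and the first *Kat2b* window (chr17:53566721-53566860, plus strand) 40.8% over its whole 250 bases, with the A and T runs of at least 8 letters in capitals, of which the last of 3 lies beyond the stretch shown.
Ctbp1: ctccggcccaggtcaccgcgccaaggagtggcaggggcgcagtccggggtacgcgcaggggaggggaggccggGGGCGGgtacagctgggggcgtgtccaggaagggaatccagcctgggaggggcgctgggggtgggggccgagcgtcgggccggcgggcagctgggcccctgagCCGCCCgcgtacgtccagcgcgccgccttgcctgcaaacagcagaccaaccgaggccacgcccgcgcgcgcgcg
Kat2b: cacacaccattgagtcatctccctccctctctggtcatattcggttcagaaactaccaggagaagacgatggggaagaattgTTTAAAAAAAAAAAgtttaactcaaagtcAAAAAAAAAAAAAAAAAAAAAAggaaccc
The *Ctbp1* stretch has 31 CpG dinucleotides and no A or T run over 3 letters, while the *Kat2b* window has 6 CpG, no GC box and a run of 22. These letters describe the windows and say nothing of whether SATB1 binds there.

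Among the corepressors, HDAC1 is a class I histone deacetylase, and with MTA2, a scaffold subunit, and CHD4, an ATP-dependent remodeller, it belongs to the nucleosome remodelling and deacetylase (NuRD) complex. *Chd4* (chr6:125095981-125130591, plus strand) was the most abundant member, with 1077 and 1006 CPM in WT and 1197 and 1092 CPM in cKO. Its groups did not overlap, yet the gap between the nearest libraries was narrow, and the log2 fold change of 0.14 had an SE of 0.12 (edgeR adjusted p = 0.588). *Mta2* (chr19:8941875-8952303, plus strand) had 426 and 416 CPM in WT and 470.2 and 403 CPM in cKO, so that the cKO libraries lay on both sides of WT. Its log2 fold change came to 0.05 against an SE of 0.11 (edgeR adjusted p = 0.842). *Hdac1* (chr4:129516104-129542713, minus strand) had 77.4 and 77.2 CPM in WT and 86.0 and 78.7 CPM in cKO. The WT libraries were nearly level, cKO 2 was only just above them, and the log2 fold change of 0.09 had an SE of 0.11 (edgeR adjusted p = 0.709). A pseudogene named *Hdac1-ps* held between 55 and 89 counts per library, and reads that match more than 1 place were not counted, so the level of *Hdac1* is uncertain by an amount these counts do not give.

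CtBP1 is a corepressor that senses NADH and recruits demethylases and deacetylases. *Ctbp1* (chr5:33247723-33274994, minus strand) had 249 and 269 CPM in WT, 264 CPM in cKO 1 and 202.5 CPM in cKO 2. Only cKO 2 stood low, and cKO 1 lay between the WT libraries. Counting error alone gave 95% Poisson intervals of 251 to 279 CPM for cKO 1 and 189.9 to 216 CPM for cKO 2, which did not overlap. Such intervals cover counting error only, treat every read as its own molecule and leave out the spread between samples. The absolute log2 difference between the cKO libraries, 0.38, was larger than in 89.8% of the 3073 genes at or above the level of the lowest member. The log2 fold change came to -0.15 against an SE of 0.13 (edgeR adjusted p = 0.606). Without cKO 1 it was -0.35 and called (edgeR adjusted p = 0.0231), and without cKO 2 it was 0.03, so its direction rested on 1 library.

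Among the remodellers, SMARCA4 (BRG1) is an ATPase of the SWI/SNF complexes, SMARCA5 (SNF2H) is the ATPase of ISWI complexes, and BAZ1A (ACF1) pairs with SMARCA5 to space nucleosomes. *Smarca4* (chr9:21616169-21704230, plus strand) had 320.0 and 294 CPM in WT and 313 and 294 CPM in cKO. The groups lay on top of each other, with a log2 fold change of -0.02, an SE of 0.10 and a fold interval from 0.845 to 1.16 (edgeR adjusted p = 0.95). *Smarca5* (chr8:80698507-80739497, minus strand) had 121 and 114 CPM in WT and 114 and 121 CPM in cKO. It varied least of the 10, with its highest library 1.07 times its lowest, and the fold interval ran from 0.846 to 1.17 (edgeR adjusted p = 0.979). *Baz1a* (chr12:54892989-55014348, minus strand) had 123 and 126 CPM in WT and 146 and 142 CPM in cKO. Both groups were tight and apart, with a log2 fold change of 0.21, an SE of 0.10 and a fold interval from 0.992 to 1.345 (edgeR adjusted p = 0.290, unadjusted p = 0.0611). The catalytic and accessory subunits of the same ISWI pair thus had log2 fold changes of -0.01 and 0.21, and neither passed the test. Of the exonic bases of *Baz1a*, 4.83% are shared with *Gm20403* on the same strand, where reads cannot be assigned.

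EP300 (p300) and KAT2B (PCAF) are histone acetyltransferases, and PCAF has been described to acetylate SATB1 itself. *Ep300* (chr15:81585351-81652077, plus strand) had 326 and 315 CPM in WT and 389.5 and 382 CPM in cKO, or 320.5 ± 8.09 CPM (SD, n = 2) against 386 ± 5.61 CPM (SD, n = 2). The groups were further apart than the libraries within either, and on the log2 scale this was the largest difference among the members. The log2 fold change came to 0.27, its SE to 0.09, with a fold interval from 1.04 to 1.40, which leaves out 1, but over all genes the edgeR adjusted p = 0.170 (unadjusted p = 0.0210). It passed in 1 alternative, without cKO 2, with 0.28 and an edgeR adjusted p of 0.0218, where 1583 genes were called in all. *Kat2b*, on chromosome 17, had 108 and 115 CPM in WT, 110.4 CPM in cKO 1 and 129 CPM in cKO 2. Only cKO 2 stood above both WT libraries, and the log2 fold change came to 0.10 against an SE of 0.11 (edgeR adjusted p = 0.688). *Pml* (chr9:58218076-58249786, minus strand), whose product builds nuclear bodies and has been described to act with SATB1 at the MHC class I locus, had 163 and 155 CPM in WT and 147 and 162 CPM in cKO. The groups overlapped, with a log2 fold change of -0.04, an SE of 0.10 and a fold interval from 0.829 to 1.14 (edgeR adjusted p = 0.872). *Sp100*, another scaffold of these bodies, had 938 and 905 CPM against 854 and 932 CPM, overlapping likewise, with a log2 fold change of -0.05 (edgeR adjusted p = 0.869).

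**Figure D2:**
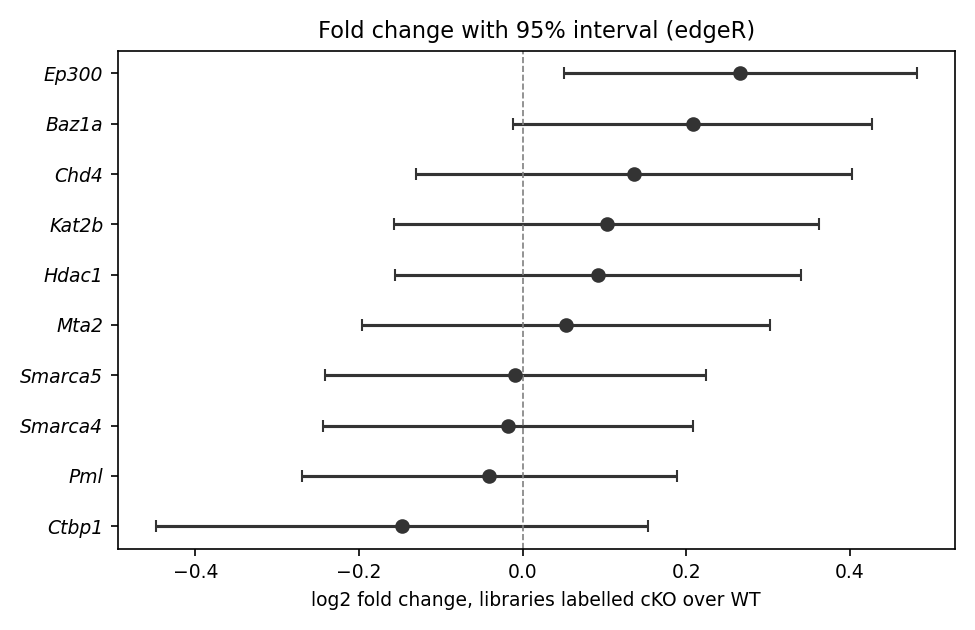
Log2 fold change of each partner gene, libraries labelled cKO over WT, with the 95% interval from the edgeR quasi-likelihood fit as the bar. Only the interval of *Ep300*, 0.05 to 0.48, lies clear of 0, and its adjusted p was 0.170.

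Levels of different genes were compared per kilobase (kb) of exon, with the union of GENCODE M21 exons as length. *Chd4* led with a mean of 136 CPM per kb over the 4 libraries, followed by *Mta2* with 105, and the range of each lay clear of the next gene. *Ctbp1* (55.0) and *Smarca4* (47.2) overlapped in range. *Pml* (28.1), *Ep300* (24.7) and *Kat2b* (23.8) each overlapped with the next gene, down to *Hdac1* (23.2), and their order changed from library to library. *Baz1a* (18.8) and *Smarca5* (15.1) came last, without overlap, in all 4 libraries. From *Chd4* to *Smarca5* the level differed between 8.53-fold and 10.2-fold within a library, far more than any member differed between the genotype labels. On this scale the NuRD subunits were unequal, with *Hdac1* below *Mta2* and *Chd4* in every library.

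Each of 9 members has at least 1 close paralog, and the share of the pair or trio that each provided was set beside the genotype labels, again per kb. For *Ctbp1* and *Smarca5* the paralog was nearly silent: *Ctbp2* had 1 or 2 counts per library, and *Smarca1* had 0 counts in all 4, which allows at most 3 counts or 0.738% of the pair. *Smarca4* provided 75.4% ± 1.87 (SD, n = 2) of the SWI/SNF ATPase pair in WT and 74.1% ± 1.20 (SD, n = 2) in cKO, with *Smarca2* as the rest. *Mta2* provided 58.7% ± 0.561 (SD, n = 2) of its trio in WT and 60.0% ± 1.72 (SD, n = 2) in cKO, ahead of *Mta1* and *Mta3*. *Chd4* and *Chd3* were near parity, at 48.6% ± 0.547 (SD, n = 2) and 50.8% ± 2.97 (SD, n = 2) for *Chd4*, as were *Hdac1* and *Hdac2*, at 49.2% ± 1.29 (SD, n = 2) and 51.6% ± 1.11 (SD, n = 2) for *Hdac1*. *Baz1a* gave 45.7% ± 1.22 (SD, n = 2) and 46.7% ± 2.50 (SD, n = 2) beside *Baz1b*.

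In the acetyltransferase pairs the members' partners differed in sign. *Ep300* and its twin *Crebbp*, the gene of CBP, were both higher in cKO: *Crebbp* had 356 and 348 CPM in WT and 465 and 434 CPM in cKO. Its log2 fold change of 0.35 had an SE of 0.10, and it was not called (edgeR adjusted p = 0.0904). It was called higher in 4 alternatives, which were no low-count filter, the likelihood ratio test, and edgeR without cKO 1 and without cKO 2. The share of *Ep300* went from 46.5% and 46.2% in WT to 44.3% and 45.5% in cKO. *Kat2b* and *Kat2a*, the gene of GCN5, had differences of opposite sign, although without cKO 2 that of *Kat2b* was -0.013 on the log2 scale. *Kat2a* had 115 and 112 CPM in WT and 96.8 and 91.4 CPM in cKO, with a log2 fold change of -0.27, an SE of 0.10 and an edgeR adjusted p = 0.194. The share of *Kat2b* was 40.3% and 42.2% in WT and 44.9% and 50.3% in cKO. The shares did not overlap between groups for *Kat2b* (cKO higher), *Hdac1* (cKO higher) and *Ep300* (cKO lower), nor for *Mta1* in the trio of *Mta2*, at 28.8% and 28.6% in WT and 28.0% and 25.7% in cKO, for each of which an exact two-sided permutation test gives p = 0.333, the smallest possible with these libraries.

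**Figure D3:**
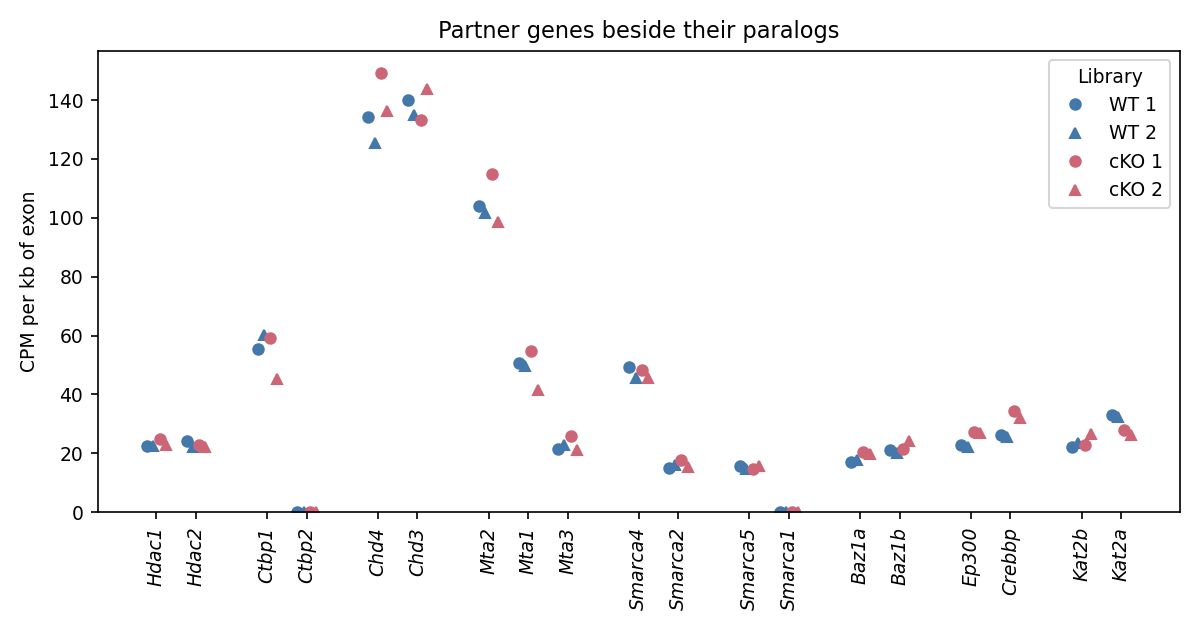
CPM per kb of exon for 9 partner genes (first in each group) and their paralogs, in each library, with colours and symbols by genotype label and replicate. *Chd4* and *Chd3* stand highest and level with each other, *Ctbp2* and *Smarca1* lie at or near 0, and *Kat2a* is lower in both cKO libraries than in both WT libraries.

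To see the members within their machines, 78 other subunits and related genes were listed in 6 groups, of which 75 passed the filter. Of these 1 was called, *Rbbp7*, or 1.33% beside 4.3% of all tested genes. In edgeR this count turned on single libraries. It rose without either cKO library, where the genes added were higher in cKO, and fell without either WT library. The count over all tested genes rose and fell in the same fits. Across the 75 genes the median log2 fold change was 0.02, with 44 higher and 31 lower. *Rbbp7* encodes a histone-binding WD-repeat subunit of NuRD and other complexes and had 188 and 171 CPM in WT and 134 and 129 CPM in cKO. Both cKO libraries were lower, with a log2 fold change of -0.45, an SE of 0.10 and an edgeR adjusted p = 0.0435. It lies on the X chromosome (GRCm38, chrX:162760402-162779092), unlike the 10 members, which are all autosomal, and 5.98% of its exonic bases overlap *Txlng* on the opposite strand, which cannot be told apart without the strand setting. Its call was lost in DESeq2 (log2 fold change -0.45, adjusted p = 0.076) and in edgeR after thinning to the smallest total gene count (-0.44, adjusted p = 0.0525). It was also lost in edgeR without WT 1 (-0.37, adjusted p = 0.372) and without WT 2 (-0.52, adjusted p = 0.210), so that the sign held in each. Of 370 X-linked genes tested, 24 were called, or 6.49% beside 4.3% of all tested genes. Of these 10 were higher and 14 lower, and the median log2 fold change of the 370 was 0.0026. Sex and genotype label cannot be told apart for *Rbbp7* either.

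Of the 15 tested genes of the NuRD and class I deacetylase list, 7 were higher and 8 lower, with a median of -0.0049 on the log2 scale, 1 called (*Rbbp7*) and 2 at an unadjusted p under 0.05 in edgeR (*Rbbp7* and *Mbd2*, both lower). The 21 tested SWI/SNF genes and the 11 of the PML nuclear body list were as evenly divided, with 10 and 5 higher and medians of -0.0030 and -0.0086, with 0 called in either and 1 and 0 at an unadjusted p under 0.05 in edgeR. The 7 tested CtBP genes had a median of 0.12 and the 7 tested ISWI genes 0.08, again with 0 called and 1 each at an unadjusted p under 0.05. These were *Zfp217*, with a log2 fold change of 0.26, and *Baz2b*, with 0.41, which is larger than that of *Crebbp* or *Kat6a*. *Baz2b* was called higher with the replicate number as a block. The 14 acetyltransferase genes had the highest median, 0.12, with 11 higher and 3 lower, 0 called and 4 (28.6% beside 19.1% of all tested genes) below 0.05 by unadjusted p from edgeR, which were *Ncoa1*, *Crebbp* and *Kat6a* on the higher side and *Kat2a* on the lower. *Ncoa1* was called higher in the same 4 alternatives as *Crebbp* and with the replicate number as a block, and *Kat6a* without cKO 2. DESeq2 called 0 of the 75 genes in the 6 lists, with 5 at an unadjusted p under 0.05. Over all 12403 tested genes it called 427, with 1356 at an unadjusted p under 0.05.

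**Figure D4:**
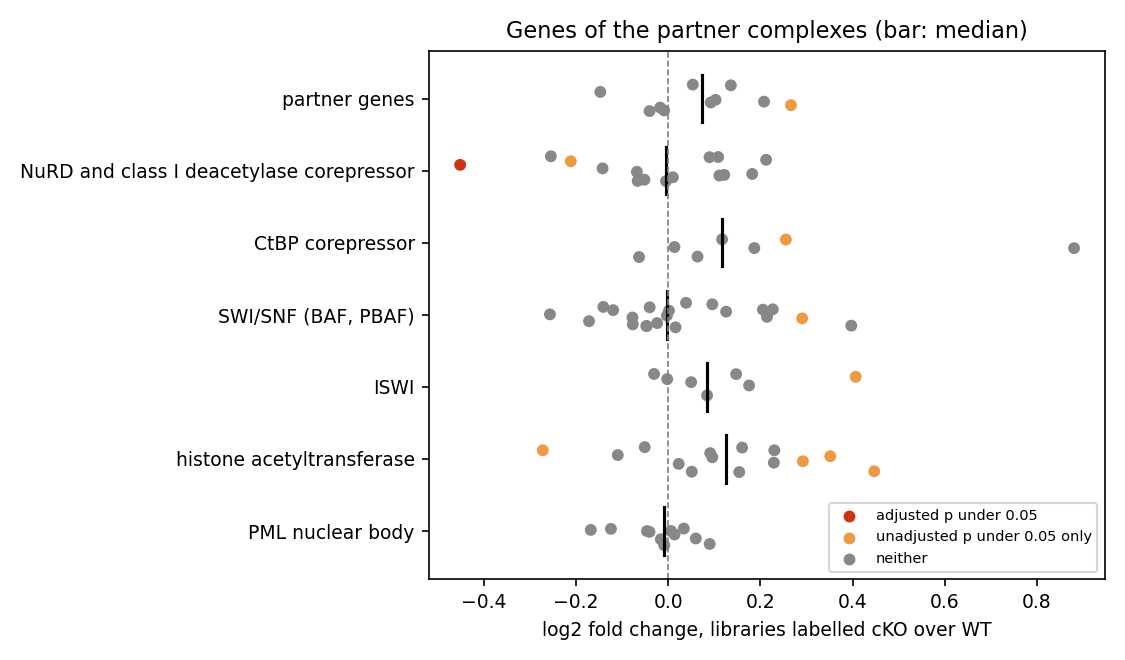
Log2 fold change, libraries labelled cKO over WT, of the partner genes and of the tested genes in 6 lists of related chromatin genes, with a bar at each median. Points are red where the edgeR adjusted p was under 0.05 (*Rbbp7* alone), orange where only the unadjusted p was, and grey otherwise. The grey point at 0.88 is *Zeb2*, which had 14 and 8 counts in WT and 27 and 10 in cKO, with overlapping groups and an SE of 0.50.

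Exonic length moved with the fold changes. When the tested genes were divided into 10 equal parts by exonic length, the median log2 fold change went from -0.07 in the shortest to 0.06 in the longest, and 62.6% of the longest were higher in cKO beside 43.0% of the shortest. *Ep300*, with 14273 bases of exon, and *Crebbp*, with 13540, are in the longest part, and *Ncoa1* and *Kat6a* are in the next longest. Within the longest part *Ep300* stood above 79.6% of genes and *Crebbp* above 86.9%. *Baz1a*, with 7159 bases, stood above 77.2% of its part. With the length trend removed, an alternative added after these values were seen, *Ep300* had a log2 fold change of 0.19 (edgeR adjusted p = 0.374) and *Baz1a* 0.17 (edgeR adjusted p = 0.416), both smaller than before. *Chd4* was smaller too, at 0.09, whereas *Hdac1* was larger, at 0.12, *Smarca5* went to -0.06 and *Satb1* to -0.13, and the median of the members was 0.08. The unadjusted p of *Ep300* was then 0.0995, so that 0 of the 10 members were below 0.05 in edgeR by either p. Of the 75 genes in the lists 5 were below 0.05 by unadjusted p, beside 9 before. Over all 12403 tested genes 2352 were below 0.05 by unadjusted p, beside 2370 before.

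**Figure D5:**
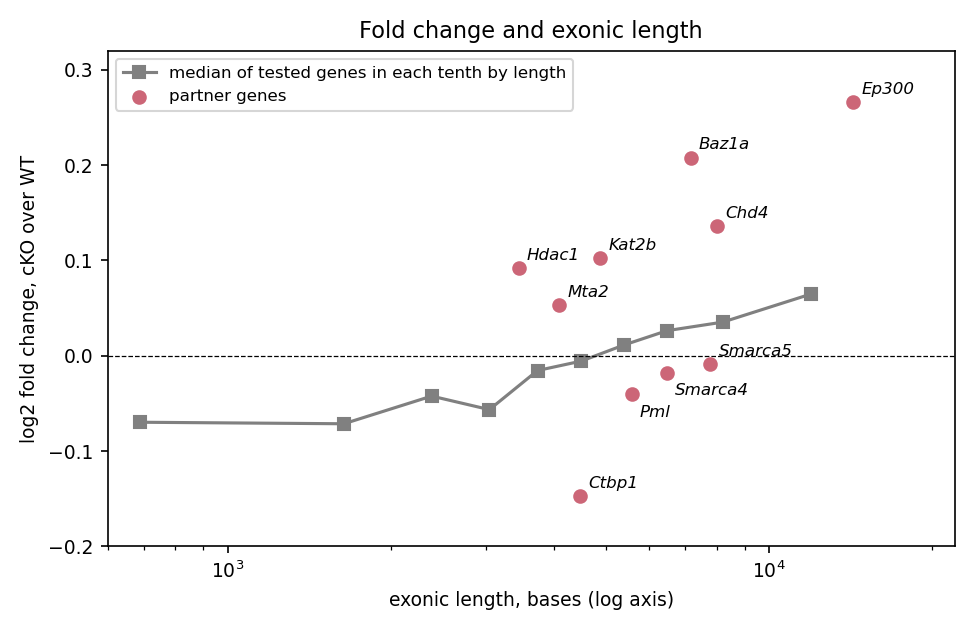
Log2 fold change, libraries labelled cKO over WT, against exonic length in bases (log axis), with the partner genes as red points and the median of all tested genes in each of 10 equal parts by length as grey squares placed at the median length. The grey line climbs from -0.07 to 0.06, and *Ep300*, *Baz1a*, *Chd4*, *Kat2b*, *Hdac1* and *Mta2* lie above it.

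By the shape of its profile over the 4 libraries, *Ep300* was nearest to *Rbm15*, *Rwdd1* and *Vps72*, with root mean square distances of 0.0068, 0.012 and 0.013 on the log2 scale. None of the 3 was called (edgeR adjusted p of 0.212, 0.339 and 0.266). As they were chosen for nearness to *Ep300*, itself not called, this adds no separate evidence. Of the other members *Baz1a* was closest to *Ep300*, at a distance of 0.042 and rank 154 among tested genes. *Ctbp1* was farthest, at 0.25 and rank 7601. Whether these distances exceed the spread between libraries was not tested.

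*Kat2b* is the only member on the chromosome of the targeted gene. It lies on GRCm38 at chr17:53566861-53672720, and starts 1.73 Mb beyond the end of *Satb1* (chr17:51736187-51833290). Of 130 tested genes that start within 10 Mb of *Satb1*, 7 were called, 4 higher and 3 lower, or 5.38% beside 4.3% of all tested genes. Leaving out WT 2 lowered this count in edgeR, and lowered that over all tested genes too. Within 2 Mb, 15 genes were tested, *Kat2b* among them, and 0 were called by edgeR or by DESeq2. In edgeR 1, *Gm19585*, was at an unadjusted p under 0.05, beside 19.1% of all tested genes. Several of the 15 lie within or across *Satb1* itself, such as *Gm37248* and *Gm6934*, so not all are separate neighbours. The SE of the log2 fold change was 0.45 for *Gm37248* and 0.38 for *Gm6934*, beside 0.11 for *Kat2b*.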

How the data were processed

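RNA from sorted splenic CD4+ T cells was sequenced by the authors, and reads were aligned to mm10 with HISAT2 2.1.0 and counted with HTSeq 0.11.1, as the submitters' processing notes list them. The deposited files hold raw read counts per gene symbol, unscaled. The annotation and strand setting are not given in the sources used here. The 5 HTSeq summary lines were left out; reads outside features were 59.4% to 64.5% of reads aligned once, and ambiguous reads at most 0.734%.

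Counts were analysed in R 4.3.3 with edgeR 4.0.16: filterByExpr kept 12403 of 55367 genes, libraries were scaled by TMM, and the quasi-likelihood F test on genotype label, two-sided with no covariate, was adjusted by Benjamini-Hochberg over all tested genes. The SE is the absolute log2 fold change over the square root of F. Intervals use the t distribution at a level of 0.95. DESeq2 1.42.0, other scalings and filters, a replicate block, thinning and leaving out each library were alternatives, and removal of the length trend was added after seeing the data. Lengths came from GENCODE M21 (GRCm38, the assembly of mm10), which covered 98.4% of tested genes. The procedure was tested on simulated data. Plots used matplotlib 3.10.9 in Python 3.11.15.

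The members, gene lists and tests were chosen with earlier results of these data known. Named are the 10 members, *Satb1*, the paralogs of members and *Sp100*, list genes that were called, the 3 genes nearest in profile to the member with the largest change, and *Xist*, *Ddx3y* and *Foxp3*. *Ncoa1*, *Kat6a*, *Baz2b*, *Zfp217*, *Zeb2*, *Klra8*, *Mbd2*, *Hdac1-ps*, *Gm20403*, *Txlng*, *Gm19585*, *Gm37248* and *Gm6934* were named after their values were seen. No set test was made.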

Additional observations from a re-analysis of the deposited data

How the results depend on the processing

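Over 130 alternative values of the members' log2 fold changes, 119 kept direction and side of the threshold, including all 90 that did not leave out a library. Members called stayed at 0 in every alternative that kept 4 libraries, the added length correction among them, and were between 0 and 1 with 1 library omitted, where the lone library of a group is assumed to vary like the other group: *Ctbp1* was called without cKO 1 and *Ep300* without cKO 2. Leaving out a library moved the log2 fold change from -0.35 to 0.033 for *Ctbp1*, from -0.063 to 0.16 for *Mta2*, from -0.076 to 0.052 for *Smarca4*, from -0.054 to 0.042 for *Smarca5*, from -0.013 to 0.21 for *Kat2b*, from -0.11 to 0.027 for *Pml* and from -0.13 to 0.045 for *Satb1*, and each of these ranges holds both signs. *Hdac1* went from 0.027 to 0.15 and *Chd4* from 0.068 to 0.20 without changing sign, each lowest without cKO 1 and highest without cKO 2. *Ep300* stayed between 0.19 and 0.30 over all alternatives, with edgeR or DESeq2 adjusted p from 0.0218 to 0.768.

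Counts of calls moved more. All genes called, 533 in the report, were 1367 with no low-count filter and 1096 with the likelihood ratio test, and 174 (without WT 2) to 1583 (without cKO 2) with 1 library omitted. Partner complex genes called were 3 with no filter, 3 with the likelihood ratio test, 0 with DESeq2, 0 after thinning, and 0 to 10 without a library. Genes called near *Satb1* were 21, 13 and 3 with no filter, the likelihood ratio test and DESeq2, and 0 to 15 without a library. The cause of these moves was not tested. The labels do not say whether the replicate number pairs libraries. Over genes, deviations of same-numbered libraries correlated at 0.0642, a single value that cannot decide it. With the replicate number as a block, 1165 genes, 3 partner complex genes, 12 genes near *Satb1* and 0 members were called.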
